A study of Mus musculus with 22 samples.

Results

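The 240 genes described here have mouse symbols made of Zfp and a number, the names given to zinc finger proteins, and their transcripts were measured in macrophages derived from bone marrow (BMDM) on 22 one-colour Agilent arrays. The RefSeq gene table held 372 such genes, and 337 of them had an array probe against a curated RefSeq mRNA. A probe of 324 genes was well above the local background on 3 or more arrays, and a probe of 241 genes was so on all 22 arrays. Zfp36, which encodes the mRNA-binding protein tristetraprolin, was left out, and the brightest probe stood for a gene with several. The same detection rule was met by 14770 of the 22384 genes tested, and these are the genes with which the Zfp-numbered genes were compared.

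BMDM were grown for 9 days with 10 ng/ml M-CSF from femoral marrow of C57BL/6 mice, labelled male and 10 to 14 weeks old. Wild-type cells (wt), cells without the kinase MK2 (MK2-/-) and cells without MK2 and its relative MK3 (MK2/3-/-) received 100 ng/ml lipopolysaccharide (LPS) or medium alone for 360 min. LPS was given to 3 wt, 4 MK2-/- and 4 MK2/3-/- samples, and medium to 4 wt, 4 MK2-/- and 3 MK2/3-/- samples. The marrow came from knockout animals, so that the kinases were missing during differentiation as well as during treatment. Each genotype was hybridised on a slide of its own, so that genotype and slide cannot be told apart, whereas LPS and medium were compared within a slide. The methods state independent experiments, and p-values measure the spread between these samples, with LPS and medium arrays taken as unpaired.

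Most Zfp-numbered proteins bind DNA through rows of C2H2 zinc fingers. Many also carry a KRAB domain, which recruits Trim28 and through it the histone methyltransferase Setdb1 and heterochromatin proteins, and such proteins are best known for keeping retroelements silent. The genes arose largely by tandem duplication and lie in clusters of near-identical neighbours, and a probe can therefore also bind the transcript of a relative. MK2 and MK3 act downstream of the p38 MAP kinase in the macrophage response to LPS and stabilise many cytokine mRNAs.

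The signal of the Mapkapk2 probe, for the MK2 gene, had a log2 value of 10.77 to 12.39 in wt medium arrays, 8.7 to 9.01 in MK2-/- and 8.34 to 8.5 in MK2/3-/- medium arrays. That of Mapkapk3, for MK3, was 12.83 to 13.42 in wt, 12.39 to 13.16 in MK2-/- and 10.94 to 11.4 in MK2/3-/- medium arrays. The position of these probes relative to the deleted parts was not examined. Of the macrophage markers, 6 of 7 were tested and all 6 were above background on all arrays, with a summed signal of 501000 to 693000 in wt medium and 250000 to 336000 in wt LPS arrays. The summed signal of 5 B cell markers was 662 to 1070 in wt medium and 308 to 390 in wt LPS arrays. That of 4 T cell markers was 3610 to 4500 and 5440 to 5890, that of 6 neutrophil markers 2840 to 3790 and 5470 to 11200, and that of 4 mast cell markers 515 to 1010 and 836 to 1460. For 5 dendritic cell markers it was 60700 to 152000 in wt medium and 48100 to 71200 in wt LPS arrays, for 2 erythroid markers 13.3 to 34.2 and 24.8 to 64.6, and for 4 stromal markers 3050 to 104000 and 11700 to 61000. In knockout medium arrays the T cell sum was 5010 to 9490 in MK2-/- and 6700 to 9270 in MK2/3-/-, and the neutrophil sum 2840 to 6930 and 4930 to 7730. The other sums in medium overlapped those of wt. Under LPS, 2 dendritic cell, 1 T cell, 1 B cell and 1 mast cell marker were called higher in MK2/3-/- than in wt, and 1 neutrophil marker lower. Of all genes tested, 9.61% were higher and 14% lower in that comparison. The part of these marker levels in the results on the Zfp-numbered genes was not tested, and in bulk samples fewer cells of a type and less RNA per cell cannot be told apart. Both arrays of MK2-/- replicate 3 stood apart. Their Y-linked genes had a mean log2 signal of 2.07 and 2.33, against 6.86 to 8.82 on the other arrays, although the mice were labelled male, and its LPS array had 2927 spots marked as outliers, against 115 to 261 elsewhere. In wt medium replicate 4, Il6 had a log2 signal of 13.36, against 6.41 to 10.02 in the other wt medium and 17.52 to 17.81 in the wt LPS arrays.

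More Zfp-numbered genes fell than rose after LPS in each genotype. In wt BMDM, 105 of the 240 genes were lower and 24 were higher than in medium at a limma adjusted p under 0.05, that is 43.8% and 10%. Among the 14770 genes with the same detection, 28% were lower and 22.7% higher, and among all genes tested 23.5% and 18.6%. In MK2-/- BMDM 113 genes were lower (47.1%) and 29 higher (12.1%), against 33.2% and 22.3% of the comparison genes. In MK2/3-/- BMDM 128 genes were lower (53.3%) and 30 higher (12.5%), against 34.9% and 25.5%. Of all genes tested, 27.1% were lower and 17.5% higher in MK2-/-, and 27.9% and 20.2% in MK2/3-/-. The median log2 difference between LPS and medium over the 240 genes was -0.51 in wt, -0.54 in MK2-/- and -0.69 in MK2/3-/-, while that over the comparison genes was -0.05, -0.07 and -0.08. Without both arrays of MK2-/- replicate 3, the counts in MK2-/- were 83 lower and 32 higher, and the median was -0.43.

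**Figure D1:**
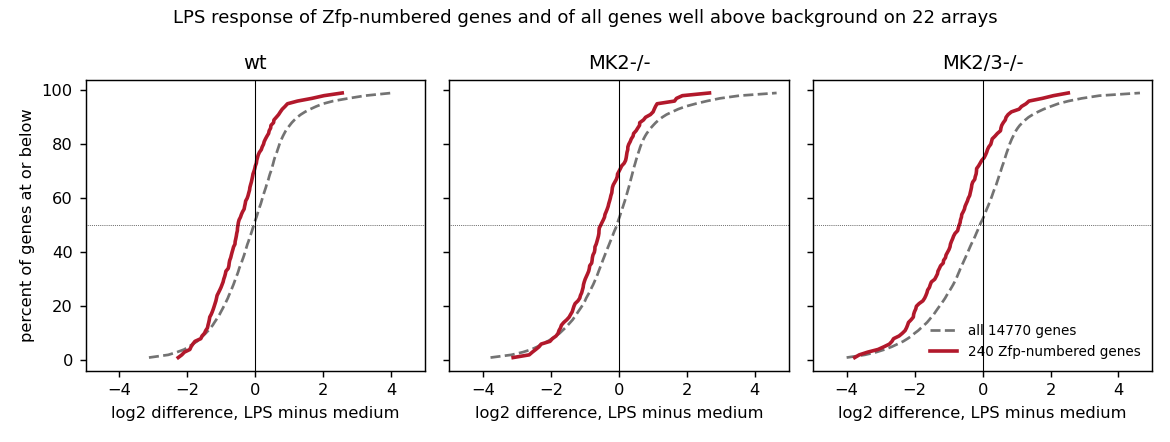
Cumulative percent of genes (vertical axis) at or below each log2 difference between LPS and medium (horizontal axis), drawn from the 1st to the 99th percentile for the 240 Zfp-numbered genes (solid) and for all 14770 genes well above background on all arrays (dashed), in wt, MK2-/- and MK2/3-/- BMDM. The solid line crosses 50% at -0.51, -0.54 and -0.69, left of the dashed line in each genotype, and at its upper end the solid line stops at a smaller rise than the dashed line.

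The shift was seen array by array. The median of the 240 genes, each centred on its own mean over the 22 arrays, was 0.31, 0.42, 0.43 and 0.32 on the wt medium arrays and -0.10, -0.09 and -0.13 on the wt LPS arrays. It was 0.30, 0.07, 0.30 and 0.36 on the MK2-/- medium and -0.09, -0.03, -0.53 and -0.37 on the MK2-/- LPS arrays. On the MK2/3-/- arrays it was 0.26, 0.30 and 0.30 in medium and -0.49, -0.34, -0.60 and -0.40 under LPS. LPS and medium arrays did not overlap in any genotype, and the lowest medium value and the lowest 2 LPS values of MK2-/- came from replicate 2 in medium and from replicates 3 and 4 under LPS. The medians of the comparison genes stayed between -0.18 and 0.14. With each array scaled to its 75th percentile in place of quantile normalisation, the median of all genes tested rose to 0.30 in wt, 0.28 in MK2-/- and 0.29 in MK2/3-/-, and the Zfp-numbered genes lay at -0.48, -0.40 and -0.54.

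**Figure D2:**
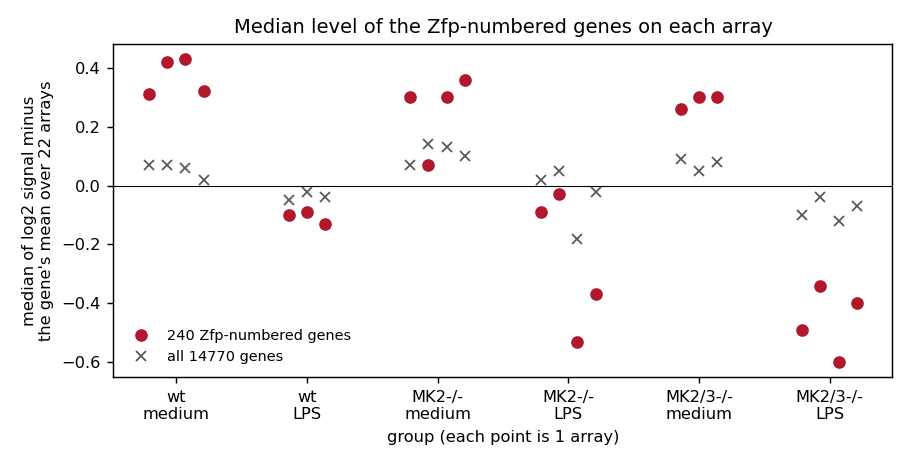
Median over the 240 Zfp-numbered genes (circles) and over the 14770 comparison genes (crosses) of the log2 signal minus each gene's mean over the 22 arrays, with 1 circle and 1 cross per array and the arrays of a group side by side. Circles of the LPS arrays lie at -0.03 or lower and those of the medium arrays at 0.07 or higher.

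Of the 240 genes, 92 were lower after LPS in all 3 genotypes (38.3%, against 24.7% of the comparison genes) and 18 were higher in all 3 (7.5% against 16.6%). In none of the 3 were 58 called (24.2% against 30.1%), and 0 members and 0.108% of the comparison genes were called with opposite signs in different genotypes. All LPS arrays lay below all medium arrays for 124 genes in wt, 91 in MK2-/- and 130 in MK2/3-/-, that is for 51.7%, 37.9% and 54.2%, while 32.2%, 30.4% and 36.1% of the comparison genes did so. In wt, 65 of the 240 members were called with a fall and 11 with a rise of 2-fold or more, as were 2590 and 1870 of the 14770 comparison genes. In MK2/3-/- these counts were 96 and 17 of the members and 3618 and 2100 of the comparison genes. Across the 240 genes, which are not independent replicates, the log2 difference in wt had a Pearson correlation of 0.90 with that in MK2-/- and of 0.87 with that in MK2/3-/-. Over the comparison genes these correlations were higher, at 0.95 and 0.93.

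Detection on all arrays leaves out genes that fell to the background. The 85 other Zfp-numbered genes that were tested had a median log2 difference of -1.32 in wt. In wt 48 of them were lower and 5 higher (56.5% and 5.88%, against 23.5% and 18.6% of all genes tested). Genes that fell to the background, or rose from it, are placed among these 85 by the detection rule, so that their changes are no further support. Genes of other names with the same partial detection were not counted apart. A value near the background is also a bound rather than a level. Just outside the rule, 13 of them were above background on 21 arrays, and 8 of these were lower in wt. Zfp61 was such a gene, with log2 signals of 3.41 to 10.92 and a log2 difference of -2.51 in wt. Just inside the rule by their lowest array were Zfp872, with log2 signals of 3.83 to 5.89, and Zfp329, with 4.18 to 9.78.

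Zfp810 fell the most in wt among the members whose arrays did not overlap. Its log2 signals were 8.53, 9.09, 9.57 and 9.65 in medium and 6.92, 5.91 and 6.64 under LPS, a log2 difference of -2.72 ± 0.40 (SE) or 6.6-fold (adjusted p = 1.91e-05). In MK2-/- its signals were 8.62, 7.96, 9.54 and 9.82 in medium and 5.18, 4.65, 4.37 and 5.01 under LPS, an 18.2-fold fall, and in MK2/3-/- the fall was 15.8-fold. All medium arrays were higher than all LPS arrays in each genotype. Zfp362 had log2 signals of 9.53, 9.94, 10.05 and 10.11 in wt medium and 7.41, 7.24 and 7.33 under LPS, and of 9.56, 9.73 and 9.97 in MK2/3-/- medium and 5.68, 6.2, 6.19 and 5.94 under LPS. Its log2 differences of -2.58 ± 0.21 in wt, -3.35 ± 0.19 in MK2-/- and -3.75 ± 0.21 in MK2/3-/- stood well outside the spread between arrays (adjusted p = 1.41e-08, 1.03e-10 and 1.06e-10).

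Zfp764, Zfp931 and Zfp41 fell in all 3 genotypes as well. The log2 signal of Zfp764 was 11.57, 11.75, 11.7 and 11.58 in wt medium and 9.46, 9.4 and 9.56 under LPS, a 4.52-fold fall with a narrow spread (adjusted p = 2.82e-07). Zfp931 had log2 differences of -2.15 ± 0.30 in wt and -3.63 ± 0.30 in MK2/3-/-, and its second probe gave -2.19 and -4.48. Zfp41 fell by 2.33 ± 0.40 in wt (adjusted p = 0.000114). The fall of Zfp397 in wt, of 2.17 ± 0.56, rested in part on 1 array, since its medium signals were 7.34, 10.49, 7.15 and 7.4, and without medium replicate 2 the log2 difference was -1.37. Zfp663 fell by 2.12 ± 0.43 in wt by its brightest probe, while a second probe, above background on 4 arrays, gave 0.81 (adjusted p = 0.268).

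The rises were fewer, and several rested on 1 probe of a gene. Zfp800 rose by both its probes. Its log2 signals were 8.41, 9.23, 8.54 and 9.03 in wt medium and 10.9, 12.01 and 12.1 under LPS, and 8.6, 8.84 and 9.05 in MK2/3-/- medium and 11.93, 12.21, 11.8 and 13.33 under LPS. The log2 difference was 2.87 ± 0.43 in wt, 3.23 ± 0.40 in MK2-/- and 3.49 ± 0.43 in MK2/3-/- (adjusted p = 2.70e-05, 1.64e-06 and 1.64e-06), and the second probe gave 2.81, 3.77 and 3.57. Zfp281, a repressor of Nanog that works with the NuRD deacetylase complex in stem cells, had log2 signals of 11.64, 11.84, 11.65 and 11.49 in wt medium and 13.19, 13.52 and 13.43 under LPS. Its rise was 3.3-fold in wt, 3.57-fold in MK2-/- and 2.34-fold in MK2/3-/- (adjusted p = 2.66e-06, 2.54e-07 and 7.91e-05), with no overlap between LPS and medium arrays in any genotype.

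Zfp791 rose from 13.86, 14.1, 13.24 and 14.69 in wt medium to 16.76, 16.91 and 16.9 under LPS, a 7.38-fold difference (adjusted p = 7.66e-07), and Zfp821 rose 4.03-fold in wt (adjusted p = 2.10e-07). Zfp707 had log2 signals of 9.79, 9.72, 9.79 and 10.05 in wt medium and 12.82, 13.03 and 12.72 under LPS, an 8.1-fold rise (adjusted p = 6.64e-06), but its second probe gave a log2 difference of 0.48 (adjusted p = 0.143). For Zfp975, Zfp11 and Zfp609 the probes disagreed in sign. The brightest probe of Zfp975 gave 2.07 ± 0.31 in wt, and its 4 other probes gave -1.05, -0.88, -0.06 and -1.19. Zfp609, which acts with the cohesin loader Nipbl, gave 1.72 ± 0.22 by the brightest and -0.63 by the other probe, and Zfp11 gave 2.05 ± 0.21 and -0.54 (adjusted p = 0.194).

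Members with several probes were counted in the same way. In wt, 13 members called higher by their brightest probe had 18 other probes, of which 2 were higher, 9 were lower and 7 were not called. The 50 members called lower had 60 other probes, of which 1 was higher, 32 were lower and 27 were not called. In MK2/3-/-, the 20 other probes of members called higher were higher in 2 cases and lower in 10, and the 70 other probes of members called lower were lower in 52 cases and higher in 1. These counts are a description without a test, and cross-hybridisation between relatives was not examined.

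**Figure D3:**
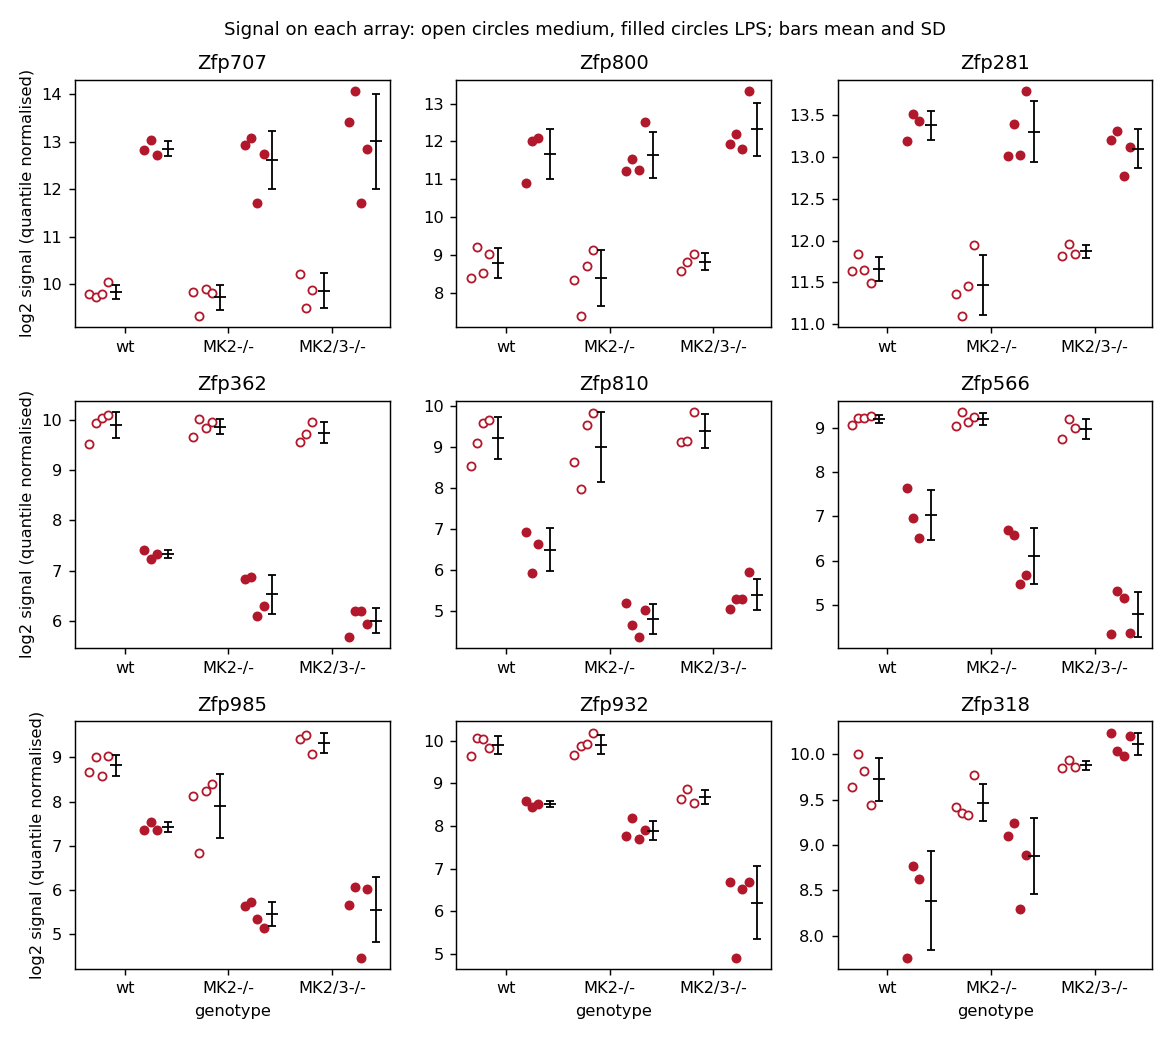
Quantile-normalised log2 signal of 9 Zfp-numbered genes on every array, by genotype, with open circles for medium, filled circles for LPS and bars for the mean and SD of a group. Zfp707, Zfp800 and Zfp281 were higher and Zfp362, Zfp810 and Zfp566 lower on every LPS array than on any medium array of the same genotype, while Zfp318 fell in wt and was 9.98 to 10.24 under LPS in MK2/3-/-. The vertical axes differ between panels and do not start at 0.

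Members of the lists with a known role moved in different directions. Of 5 genes for silencing retroelements and imprints, 2 fell and none rose in wt. For the counts of this and the following role lists, 43.8% of all members were lower in wt and 10% higher, against 28% and 22.7% of the comparison genes. Lists this short cannot tell a role apart from these shares. Zfp809, which binds the primer binding site of murine leukaemia viruses and keeps them silent, fell from 8.95, 9.11, 9.1 and 9.13 in wt medium to 7.81, 7.33 and 7.59 under LPS (log2 difference -1.50 ± 0.36, adjusted p = 0.00228) and by 2.95 ± 0.36 in MK2/3-/-. Zfp932, which restrains endogenous retroviruses, fell by 1.38 ± 0.31 in wt and by 2.48 ± 0.31 in MK2/3-/-. Zfp638, which silences unintegrated retroviral DNA with the HUSH complex, gave -0.53 ± 0.26 in wt (adjusted p = 0.106), and Zfp57, which protects imprints, 0.05 ± 0.22 (adjusted p = 0.878). Zfp568, a silencer of a placental Igf2 transcript, gave 0.55 ± 0.29 in wt (adjusted p = 0.136) and rose by 0.87 ± 0.26 in MK2-/-. Zfp57 fell in MK2-/- by 0.89 ± 0.21 by its brightest probe, while another of its probes gave a difference of opposite sign.

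Among 10 genes for chromatin and transcription complexes, 9 of them members, 3 were higher, 1 was lower and 6 were not called in wt. Besides Zfp281 and Zfp609, the activator Zfp143 rose, from 9.21, 9.03, 8.84 and 9.02 in wt medium to 9.92, 9.92 and 10.05 under LPS (log2 difference 0.94 ± 0.20, adjusted p = 0.00100). It rose by 1.08 ± 0.19 in MK2-/- and by 0.72 ± 0.20 in MK2/3-/-, while its second probe gave 0.50 in wt (adjusted p = 0.444). Zfp148, a GC-box binding factor, fell by 1.24 ± 0.19 in wt and by 1.24 ± 0.19 in MK2/3-/-. Zfp592 and Zfp687, partners of Zmynd8, gave 0.07 and -0.11 in wt, and Zfp217 of the CoREST complex, Zfp335 and Zfp644 gave 0.03, 0.25 and -0.18, all without a call.

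Of 5 genes for RNA binding, splicing and the spindle, 3 fell and 1 rose in wt. Zfp106, an RNA-binding protein needed for motor function, fell by 1.16 ± 0.26, from 11.23, 10.79, 11.7 and 11.14 in medium to 10.04, 9.97 and 10.15 under LPS (adjusted p = 0.00125), and by 1.97 ± 0.26 in MK2/3-/-. Zfp346, which binds double-stranded RNA, fell by 0.77 ± 0.23. Zfp207, the spindle protein BuGZ, gave 0.79 ± 0.23 by its brightest probe (without a call when wt LPS replicate 1 was left out), with 13, 12.56, 12.24 and 12.52 in medium and 13.71, 13.21 and 13.18 under LPS, and -1.38 by a second probe that was above background on 13 arrays. Zfp622, a factor of the large ribosomal subunit, fell by 0.98 ± 0.17 in wt (adjusted p = 0.000127), where LPS replicate 2 was dropped as an outlier spot, and by 1.40 ± 0.15 in MK2/3-/-. The SUMO ligase Zfp451 and the ubiquitin ligase Zfp598 fell in MK2/3-/-, by 1.25 ± 0.23 and 1.33 ± 0.43 (adjusted p = 0.000184 and 0.0158, the second without a call when LPS or medium replicate 3 was left out), and gave -0.57 and -0.49 in wt without a call.

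The cofactors with which KRAB zinc finger proteins silence chromatin are no members, and 16 of the 17 listed were tested. In wt 8 of them were lower and 1 higher, with a median log2 difference of -0.70, in MK2-/- 10 and 1 with -0.90, and in MK2/3-/- 10 and 1 with -1.15, while 28%, 33.2% and 34.9% of the comparison genes were lower in these genotypes. Trim28, which binds the KRAB domain, fell by 0.79 in wt (adjusted p = 0.0129) and by 1.39 in MK2/3-/- (8.82e-05). Setdb1 fell by 1.32 and 2.30 (0.000882 and 1.38e-06), Mphosph8 of the HUSH complex by 1.40 and 2.56, and Dnmt1, the maintenance DNA methyltransferase, by 1.92 and 2.76. Hdac1 rose by 1.16 and 1.31 (7.51e-05 and 1.32e-05). Related families under the same detection rule moved as follows in wt: 13 of 32 Zbtb-numbered genes were lower and 6 higher, 9 of 13 Zscan- and Zkscan-numbered genes lower and 1 higher, and 4 of 12 Klf-numbered genes lower and 5 higher.

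Between MK2/3-/- and wt BMDM under LPS, 66 of the 240 Zfp-numbered genes were lower (27.5%), 6 were higher and 168 were not called, against 16.2% and 10.1% of the comparison genes and 14% and 9.61% of all genes tested, and the median log2 difference was -0.29. In the same comparison 11 of 32 Zbtb-numbered genes were lower and 2 higher (34.4% and 6.25%). Of 13 Zscan- and Zkscan-numbered genes 5 were lower (38.5%) and 0 higher, and of 12 Klf-numbered genes 0 were lower and 1 higher. A larger share of lower genes was thus not particular to the Zfp-numbered genes. Without wt LPS replicate 1 the counts of Zfp-numbered genes were 44 lower and 3 higher, and with 75th percentile scaling they were 57 and 16. With the arrays of these 2 groups alone in the fit, 26 were lower and 2 higher, and by the methods' t-test 88 were called without adjustment and 0 after Benjamini-Hochberg adjustment. Against MK2-/-, 25 genes were lower and 10 higher in MK2/3-/- under LPS, against 6.13% and 5.82% of the comparison genes and 5.8% and 7.74% of all genes tested, and the median was -0.22. In medium 1 gene was lower and 2 were higher in MK2/3-/- than in wt, against 0.523% and 1.5% of all genes tested and 0.339% and 1.5% of the comparison genes, and with 75th percentile scaling 3 were lower and 8 higher. MK2/3-/- and MK2-/- differed in medium for 5 genes, with 3 higher (2% of all genes tested, 1.1% of the comparison genes) and 2 lower (0.826% and 0.636%), and with 75th percentile scaling for 3 higher and 1 lower.

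Between MK2-/- and wt under LPS, 23 members were lower and 4 higher, against 6.35% and 4.17% of the comparison genes and 7.06% and 4.52% of all genes tested, with a median of -0.13. This count depended on single arrays. Without both arrays of MK2-/- replicate 3, 8 were lower and 4 higher and the median was -0.02, and without wt LPS replicate 1, 2 or 3 the counts called were 8, 16 and 11. They were 15 without MK2-/- LPS replicate 1 and 14 without replicate 4, and 75th percentile scaling gave 15 lower and 10 higher. In medium 1 member was lower and 2 were higher in MK2-/- than in wt, against 3.11% and 5.7% of all genes tested and 1.86% and 5.95% of the comparison genes, and with 75th percentile scaling 7 were lower and 11 higher. Since genotype was also slide, part of any difference between genotypes may lie in the slide, which cannot be told apart.

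Among the genes lower in MK2/3-/- under LPS, Zfp932 had log2 signals of 8.58, 8.45 and 8.52 in wt, 7.77, 8.19, 7.69 and 7.9 in MK2-/- and 6.69, 4.91, 6.51 and 6.68 in MK2/3-/-. The 3 genotypes did not overlap, and MK2/3-/- was 4.99-fold below wt (adjusted p = 9.61e-05). In medium it was also lower in MK2/3-/-, with 8.64, 8.87 and 8.53 against 9.64, 10.07, 10.05 and 9.84 in wt (log2 difference -1.22 ± 0.31, adjusted p = 0.0478), a call that was lost in 17 of the 22 fits with 1 array left out. Zfp618, which binds Uhrf2, had 10.54, 10.07 and 8.43 in wt, 6.34, 8.58, 8.17 and 8.81 in MK2-/- and 4.46, 4.9, 6.37 and 7.57 in MK2/3-/- under LPS, a log2 difference between MK2/3-/- and wt of -3.85 ± 0.68 (adjusted p = 0.000792). Its second probe gave -0.42 (adjusted p = 0.0953). Zfp503, a transcriptional corepressor, gave -2.06 ± 0.39 and by its second probe -1.62 (adjusted p = 0.00119 and 0.00903).

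Zfp352, an intronless gene known from the early embryo, was higher in MK2/3-/- with and without LPS by its brightest probe. In medium its log2 signals were 9.18, 9.38, 9.58 and 9.92 in wt, 10.51, 11.41, 10.06 and 9.94 in MK2-/- and 11.6, 11.76 and 12.06 in MK2/3-/-, and under LPS 10.02, 10.11 and 9.6 in wt and 12.69, 12.65, 12.63 and 11.5 in MK2/3-/-. The difference between MK2/3-/- and wt was 2.29 ± 0.34 in medium and 2.45 ± 0.34 under LPS (adjusted p = 0.00350 and 0.000112), and MK2/3-/- and wt did not overlap. Another probe of Zfp352 gave the opposite sign for MK2/3-/- against MK2-/- in medium. The probes of Zfp446 differed in sign in MK2-/- under LPS. Its brightest probe had 8.86, 8.74 and 8.72 in wt, 9.25, 9.83, 9.93 and 10.25 in MK2-/- and 9.59, 9.7, 10.11 and 9.1 in MK2/3-/-, that is 1.04 ± 0.24 and 0.85 ± 0.24 above wt (adjusted p = 0.0110 and 0.0141). A second Zfp446 probe, above background on 19 arrays, gave -1.39 and 0.75 in these knockouts (adjusted p = 0.0422 and 0.213). Zfp131, a BTB zinc finger factor, was higher than wt in MK2-/- under LPS, by 1.08 ± 0.28 (adjusted p = 0.0215), without a call when wt LPS replicate 1 or 3 or MK2-/- LPS replicate 2 was left out, and gave 0.32 ± 0.28 in MK2/3-/- (adjusted p = 0.433).

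The other differences between genotypes that the naming rule picked were smaller or near the threshold. Zfp956 was higher in medium in both knockouts, with 10.1, 10.54, 10.95 and 10.51 in wt, 11.39, 11.88, 11.25 and 11.17 in MK2-/- and 11.58, 11.28 and 11.41 in MK2/3-/-, that is by 0.90 ± 0.21 and 0.90 ± 0.22 (adjusted p = 0.0137 and 0.0443). The wt arrays lay below those of both knockouts, but the call in MK2-/- was lost without wt medium replicate 1 or MK2-/- medium replicate 2, and that in MK2/3-/- in 11 of the 22 fits with 1 array left out. Zfp345 and Zfp985 were low on 1 MK2-/- medium array, replicate 2. Zfp345 gave -1.43 ± 0.42 in MK2-/- against wt in medium (adjusted p = 0.0400) and -0.83 without that array, and Zfp985 gave 1.43 in MK2/3-/- against MK2-/- in medium and 1.08 without it, both then without a call. Zfp772 was 3.29-fold lower in MK2-/- than in wt under LPS, with 6.61, 5.62, 4.21 and 5.81 against 6.77, 7.19 and 7.88 (adjusted p = 0.0210, without a call when wt LPS replicate 3 was left out). Zfp579 was higher under LPS in MK2/3-/- than in MK2-/-, with 10.79, 10.26, 10.48 and 10.21 against 8.89, 9.41, 9.68 and 9.25, a log2 difference of 1.13 ± 0.24 (adjusted p = 0.00388) with no overlap. Zfp92 was higher in MK2-/- than in wt under LPS, with 6.65, 6.87, 6.64 and 6.92 against 5.92, 5.87 and 5.84, a log2 difference of 0.90 ± 0.26 (adjusted p = 0.0345) that lost its call in 6 of the 22 fits with 1 array left out, including each fit without 1 of the wt LPS arrays. In medium, Zfp648 gave 0.90 ± 0.26 in MK2-/- against wt (adjusted p = 0.0388) and 0.73 without MK2-/- medium replicate 2, with the call lost in 7 of 22 such fits. Between MK2/3-/- and MK2-/- in medium, Zfp937 gave 0.80 ± 0.20 and Zfp414 gave -0.58 ± 0.15 (adjusted p = 0.0404 and 0.0435), and their calls were lost in 10 and 14 of the 22 fits.

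Whether genotypes differed in their response to LPS was tested as a difference of differences. For 171 of the 240 genes (71.2%, against 56.9% of the comparison genes) the log2 difference between LPS and medium was lower in MK2/3-/- than in wt, with a median difference of -0.28 on the log2 scale against -0.07 over the comparison genes. At the level of single genes 5 members were lower and 1 was higher, against 0.572% and 0.107% of all genes tested and 0.677% and 0.122% of the comparison genes, and 58 members and 1888 of the 14770 comparison genes had an unadjusted p under 0.05. No member was called between MK2-/- and wt, or between MK2/3-/- and MK2-/-, by limma at the adjusted threshold, where 27 and 57 members, and 1148 and 1406 comparison genes, had an unadjusted p under 0.05, and 0% of all genes tested were called between MK2-/- and wt and 0.0313% higher and 0.0357% lower between the knockouts (0.0339% each way of the comparison genes). A fall after LPS was called in MK2/3-/- and not in wt for 31 members (12.9%, against 8.82% of the comparison genes), and 29 of these, like 1199 of the 1302 comparison genes, had a negative log2 difference in wt too.

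Zfp566 had the second largest of these differences. Its log2 signals were 9.06, 9.23, 9.23 and 9.27 in wt medium and 7.63, 6.96 and 6.51 in wt LPS, and 8.74, 9.2 and 8.99 in MK2/3-/- medium and 4.34, 5.3, 5.15 and 4.36 in MK2/3-/- LPS. The log2 difference was -2.16 ± 0.31 in wt, -3.08 ± 0.29 in MK2-/- and -4.19 ± 0.31 in MK2/3-/-, and that in MK2/3-/- minus that in wt was -2.03 ± 0.44 (adjusted p = 0.0415). Zfp985 had 8.66, 9.02, 8.58 and 9.03 in wt medium and 7.36, 7.55 and 7.36 under LPS, and 9.41, 9.51 and 9.07 in MK2/3-/- medium and 5.67, 6.06, 4.47 and 6.02 under LPS, a difference of response of -2.38 ± 0.50 (adjusted p = 0.0400). Zfp825, Zfp758 and Zfp74 gave -1.76 ± 0.33, -1.37 ± 0.30 and -1.22 ± 0.25 (adjusted p = 0.0239, 0.0415 and 0.0390), and the second probe of Zfp758 gave -1.59 (adjusted p = 0.0401). For Zfp74, MK2/3-/- LPS replicate 1 was dropped as an outlier spot. With all outlier spots kept, 2 members were called lower and 0 higher in place of 5 and 1, and the call of Zfp74 was among those lost. In LPS-treated cells all MK2/3-/- arrays lay below all wt arrays for these 5 genes, as they did for 33.8% of all members and 18.4% of the comparison genes. These 5 genes were picked by their lower response, so that this is a description and no further support.

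Zfp318, which in B cells allows the long transcript that encodes IgD, went the other way. Its log2 signals were 9.64, 10, 9.82 and 9.44 in wt medium and 7.76, 8.77 and 8.63 under LPS, a fall of 1.34 ± 0.24 (adjusted p = 0.000164). In MK2/3-/- they were 9.85, 9.94 and 9.86 in medium and 10.24, 10.04, 9.98 and 10.2 under LPS, a difference of 0.24 ± 0.24 (adjusted p = 0.453), although the LPS arrays were all above the medium arrays. The responses differed by 1.58 ± 0.34 (adjusted p = 0.0411). A second probe gave -1.06 in wt and 0.60 in MK2/3-/-, with a difference of response of 1.67 (adjusted p = 0.0158), while the other 2 gave 1.09 and -0.93 (adjusted p = 0.420 and 0.444). All 6 calls were near the threshold and were lost with 75th percentile scaling and with the groups of the comparison alone in the fit. With the replicate letter in the array file names as a random block 15 members were called. Between 0 and 15 members were called when 1 array was left out, with 0 without wt LPS replicate 1 and 15 without MK2/3-/- LPS replicate 4.

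**Figure D4:**
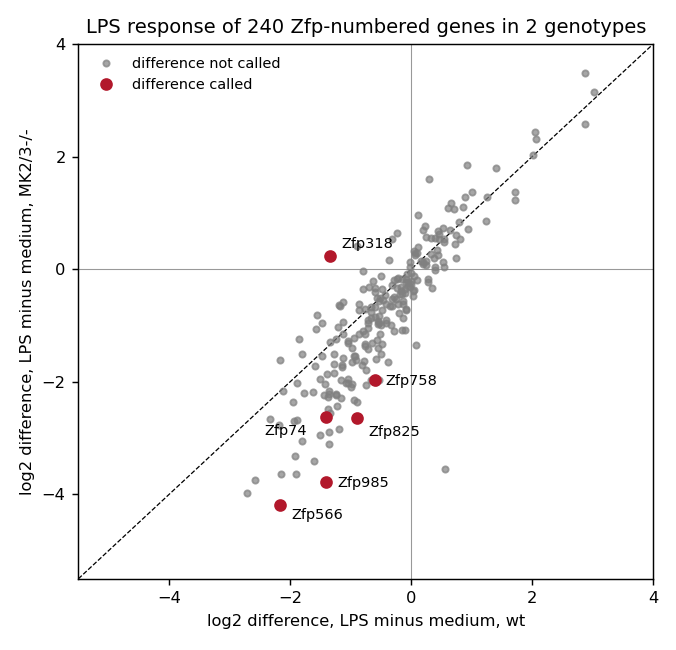
Log2 difference between LPS and medium in wt (horizontal axis) and in MK2/3-/- (vertical axis) for each of the 240 Zfp-numbered genes, with the dashed line marking equal responses and large red points the 6 genes whose responses were called different. Most points in the lower left lie below the dashed line, and Zfp318 lies above it.

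Position in the genome was described from the order of protein-coding genes in the RefSeq table. Of the 240 genes, 122 stood next to another Zfp-numbered gene and 118 did not. Among the former 48.4% were lower in wt and 59.8% in MK2/3-/-, with medians of -0.53 and -0.93, and among the latter 39% and 46.6%, with medians of -0.42 and -0.57. Neighbours did not all move alike. In the run of 15 Zfp-numbered genes from Zfp84 to Zfp146, 11 were members, of which 7 were lower and none higher in wt and 7 lower and 1 higher in MK2/3-/-. Zfp566 and Zfp74 belong to it, as does Zfp382, which gave 0.92 in wt (adjusted p = 0.104) and rose by 1.85 in MK2/3-/- (adjusted p = 0.00182). Under LPS 5 of the 11 were lower in MK2/3-/- than in wt, against 27.5% of all members and 16.2% of the comparison genes. For the counts after LPS in this and the following runs, 43.8% of all members were lower in wt and 53.3% in MK2/3-/-. The shares of the comparison genes were 28% and 34.9%.

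The run of 9 genes from Zfp978 to Zfp933 held 6 members, among them Zfp985 and Zfp984, of which 4 were lower in wt and 4 in MK2/3-/-. Zfp984 fell by 0.94 in wt (adjusted p = 0.00327) and by 2.32 in MK2/3-/- (adjusted p = 1.26e-07). In the run of 7 genes from Zfp677 to Zfp983, all of them members, 1 was lower in wt and 4 in MK2/3-/-, and the log2 differences in wt ranged from -1.24 to 0.04. Zfp810 and Zfp809 stood beside each other in the run from Zfp872 to Zfp810. Neighbours are often close copies, so that their probes may not be independent.

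**Figure D5:**
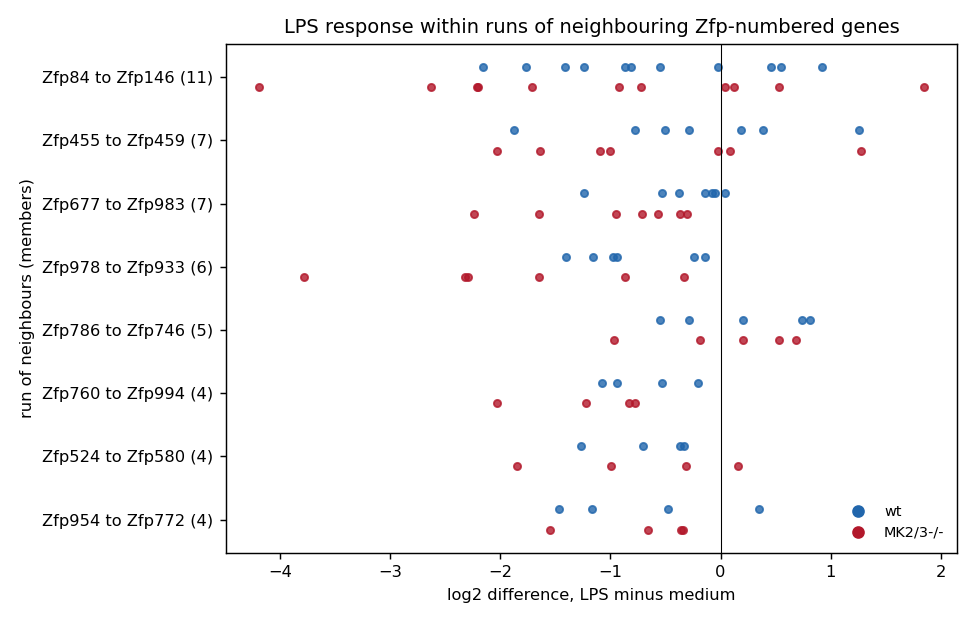
Log2 difference between LPS and medium (horizontal axis) of each member in the 8 runs of neighbouring Zfp-numbered genes that held 4 or more members, with wt in blue and MK2/3-/- in red and the number of members in brackets. In the run from Zfp84 to Zfp146 the wt values range from -2.16 to 0.92, and in that from Zfp978 to Zfp933 from -1.40 to -0.14.

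Promoter sequences were available for 204 of the 240 genes, as RefSeq windows of 300 bases from 250 before to 50 after the transcription start in GRCm38.p6. They were richer in CpG than the 27025 promoters of all genes, with a median of 14.5 against 7 CpG in a window. These 27025 promoters were taken without regard to detection on the arrays, and the comparison genes were not examined in this way. A trait of the members therefore cannot be told apart from one of detected genes in general. Searched on both strands, CCGGAAG, the core of ETS factors, was in 18.1% of the members' windows and in 9.12% of all, CCAAT in 49.5% and 37.9%, and GCATGCGC, bound by Nrf1, in 5.88% and 2.8%. TATAAA was in 6.37% and 14.2%. GGGNNTTTC, a part of the NF-kappaB motif, was in 4.9% and 4.46%, and TTTCNNTTT, an interferon-response pattern, in 9.31% and 10.7%. A match is a description of the letters and not of binding, and the motifs were chosen with results known.

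ACTACAATT, letters of the motif of Zfp143, was the rarest of these, in 6 members (2.94%) and in 0.433% of all promoters. It was in 5 of the 82 windows of members lower in all 3 genotypes, while Zfp933, the other member with it, was lower in wt and MK2/3-/-. Whether Zfp143, which was called higher in wt by its brightest probe only, had a part in the falls of these 6 members was not tested. The stretches around the letters are shown as a description. They lie at chr8:111643380-111643442 (plus strand) for Zfp1, chr7:24208336-24208399 (minus strand) for Zfp111, chr7:12881125-12881177 (plus strand) for Zfp128, chr7:24081837-24081896 (plus strand) for Zfp180, chr13:67500523-67500590 (minus strand) for Zfp58 and chr4:147848419-147848490 (minus strand) for Zfp933, and are written 5′ to 3′ along the gene with the match on either strand in capitals.
Zfp1: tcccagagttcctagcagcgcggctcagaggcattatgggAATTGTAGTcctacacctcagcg
Zfp111: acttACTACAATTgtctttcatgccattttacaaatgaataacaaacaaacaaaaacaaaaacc
Zfp128: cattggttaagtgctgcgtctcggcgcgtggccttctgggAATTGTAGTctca
Zfp180: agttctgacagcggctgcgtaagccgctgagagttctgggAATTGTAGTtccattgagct
Zfp58: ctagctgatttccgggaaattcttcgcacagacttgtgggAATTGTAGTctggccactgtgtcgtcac
Zfp933: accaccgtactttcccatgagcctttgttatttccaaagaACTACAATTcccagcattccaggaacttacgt

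The log2 differences of these 6 genes in wt and MK2/3-/- were -1.05 and -1.95 for Zfp1, -1.13 and -1.15 for Zfp111, -1.36 and -2.16 for Zfp128, -0.71 and -0.90 for Zfp180, -0.77 and -1.16 for Zfp58 and -0.98 and -1.65 for Zfp933, each with an adjusted p under 0.05. In 5 of the 6 windows the letters stood within the last 72 bases before the start, and in Zfp111 near the far end of the window.

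The 200 bases before the start of Zfp810, which had the largest fall in wt among members without overlap, and of Zfp281, a gene that rose in each genotype, are shown to set a falling beside a rising member, with CCAAT on either strand in capitals. They lie at chr9:22307639-22307838 (minus strand) and chr1:136624701-136624900 (plus strand).
Zfp810: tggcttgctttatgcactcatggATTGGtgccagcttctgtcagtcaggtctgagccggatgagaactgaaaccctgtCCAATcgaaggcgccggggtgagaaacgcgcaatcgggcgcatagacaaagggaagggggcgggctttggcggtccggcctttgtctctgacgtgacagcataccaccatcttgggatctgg
Zfp281: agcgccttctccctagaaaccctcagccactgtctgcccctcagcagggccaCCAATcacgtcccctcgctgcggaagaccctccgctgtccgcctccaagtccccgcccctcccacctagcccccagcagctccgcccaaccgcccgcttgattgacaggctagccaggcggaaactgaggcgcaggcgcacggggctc
Zfp810 held the letters on both strands and Zfp281 on the plus strand, and CCAAT was in 53.7% of the windows of members lower in all 3 genotypes, in 64.3% of the 14 windows of members higher in all 3 and in 44.4% of the other members' windows.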

How the data were processed

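Gene expression was measured in 22 samples of BMDM, in 6 groups of 3 or 4, on Agilent 1-colour arrays with 62976 spots. The authors extracted spot intensities with Feature Extraction 11.0.1.1, and the deposited files hold, for each array, processed signal intensities after background subtraction and spatial detrending, with outlier, saturation and background marks. A deposited table of log2 values, quantile-normalised and centred per the methods, was used as an alternative.

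Control spots were dropped, outlier-marked spots set to missing, probes averaged and log2 processed signal intensities quantile-normalised over the 22 arrays. Of 29150 RefSeq probes, 27509 were named through the RefSeq gene table, and 3735 GenBank probes kept their own names. Genes with a probe well above background on 3 or more arrays (22384) were tested at their brightest probe with limma 3.58.1 (R 4.3.3, data.table version 1.17.8): 6 group means, empirical Bayes, Benjamini-Hochberg adjustment over all genes tested within a comparison, called at 0.05, in 12 comparisons. A value was missing for 6 members and those fits used the other arrays. Array number limits precision. The median SD between arrays of a group was 0.16 to 0.35 (log2) over the Zfp-numbered genes. Steps were tested on simulated data.

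The members, gene lists and motifs were chosen with earlier results of these data known. Named were the 8 largest rises and falls in wt without overlap, the 3 largest called differences each way between genotypes, the 5 largest each way in LPS response and the genes of 4 role lists. Zfp91 of these lists was not tested, and neighbours were taken after this rule. Alternatives were scaling to the 75th percentile, normexp (offset 50) on median signals, since mean signals were not in the columns used, the deposited table, another probe per gene, outlier spots kept, the methods' t-test, only the groups compared, array weights, a 2-fold minimum, blocks, each array left out, MK2-/- replicate 3 left out and only genes detected on all arrays. The last 2 were chosen after seeing the data. Protein sequence features were planned and not analysed here.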

Additional observations from a re-analysis of the deposited data

Results flagged for a closer look

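For 53 named Zfp-numbered genes, 211 groups of 4 arrays were examined for 1 array far from the other 3, and 18 were found, while chance alone gives about 1 in 20 such groups. Of these, 9 values came from MK2-/- medium replicate 2, with log2 signals of 9.33 for Zfp707, 8.77 for Zfp821, 6.47 for Zfp397, 6.84 for Zfp985, 9.44 for Zfp648, 4.99 for Zfp345, 7.34 for Zfp568, 8.74 for Zfp644 and 10.88 for Zfp106. In the same group Zfp503 was at 7.44 in replicate 1, Zfp622 at 15.06 in replicate 3 and Zfp131 at 10.5 in replicate 4. In wt medium, Zfp821 was at 8.55 and Zfp609 at 9.84 in replicate 1, Zfp397 at 10.49 in replicate 2 and Zfp414 at 12.33 in replicate 4. In MK2/3-/- LPS, Zfp352 was at 11.5 in replicate 4 and Zfp932 at 4.91 in replicate 2.

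The LPS response differed between MK2/3-/- and wt for 6 members by limma's test of the difference. The log2 values of the difference were -2.38 for Zfp985, -2.03 for Zfp566, -1.76 for Zfp825, -1.37 for Zfp758, -1.22 for Zfp74 and 1.58 for Zfp318.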

How the results depend on the processing

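The numbers of Zfp-numbered genes called after LPS kept to within 1.5 times in each genotype under all alternatives except a 2-fold minimum, which left 76 in wt and 89 in MK2-/-. With 1 array left out they ranged from 99 to 134 in wt, 125 to 149 in MK2-/- and 143 to 165 in MK2/3-/-. Between genotypes the same ranges under LPS were 8 to 33 (MK2-/- against wt), 47 to 84 (MK2/3-/- against wt) and 19 to 45 (MK2/3-/- against MK2-/-), and in medium 0 to 9, 1 to 5 and 0 to 6. For the LPS response they were 0 to 15 (MK2/3-/- against wt) and 0 to 1 (MK2/3-/- against MK2-/-). The cause of the changes between settings was not tested.

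In the same order of comparisons, the counts that moved further were as follows. Under LPS, MK2-/- against wt gave 53 by the methods' t-test without adjustment, 8 with it, 14 with only the groups compared, 61 with array weights, 15 at 2-fold and 12 without MK2-/- replicate 3. MK2/3-/- against wt gave 0 by the adjusted t-test, 28 with only the groups compared and 45 at 2-fold. MK2/3-/- against MK2-/- gave 54 and 4 by the t-test, 9 with only the groups compared and 12 at 2-fold. In medium, MK2-/- against wt gave 18 with 75th percentile scaling, 7 with normexp, 5 with the probe of the highest LPS change, 42 by the unadjusted t-test, 10 with array weights, 1 at 2-fold and 6 with only genes detected on all arrays. MK2/3-/- against wt gave 11 with 75th percentile scaling, 1 from the deposited table, 58 by the unadjusted t-test and 13 with array weights. MK2/3-/- against MK2-/- gave 32 and 3 by the t-test, 2 with only the groups compared, 11 with array weights, 3 at 2-fold and 1 without MK2-/- replicate 3. The LPS response of MK2/3-/- against wt gave 0 with 75th percentile scaling and with only the groups compared, 2 from the deposited table and with outlier spots kept, 16 with array weights, 3 without MK2-/- replicate 3, and 15 with a random block for the replicate letter of the array file names and with only genes detected on all arrays. No t-test was made of it.

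With the replicate block, MK2/3-/- against wt in medium gave 1 and MK2/3-/- against MK2-/- in medium 2, and other counts stayed within 1.5 times. The numbers were not taken to pair the samples, since not every pair with the same number had a correlation of deviations over 0.1 (7 of 10 did, 0.002 to 0.452). Of pairs with the same replicate letter of the array file names 8 of 10 did (0.028 to 0.452), and of pairs with other letters 6 of 30. The 10 pairs with the same letter also had the same age label, as did some pairs with other letters. Arrays with the same letter may therefore share an animal or experiment, which the labels do not state. The main fit did not pair them, and its p-values ignore any such pairing.

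Of 173 results on 53 named genes, 74 kept their direction and side of the threshold throughout and 9 reversed, all with the probe of the highest LPS change in wt. These were Zfp663 (0.81) and Zfp318 (0.07) after LPS in wt, Zfp57 in MK2-/- (0.45) and Zfp618 in MK2/3-/- (0.30), Zfp318 under LPS in MK2/3-/- against wt (-0.36) and against MK2-/- (-0.17), Zfp57 in the latter (-1.21), Zfp352 in medium in MK2/3-/- against MK2-/- (-0.21) and the LPS response of Zfp318 (-0.93).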
